A study of Mus musculus with 4 samples.

Results

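The interleukin-6 and oncostatin M family was followed through 10 of the 19308 genes listed for every library, found by gene symbol and looked up by identifier in each count table. Its 5 ligand genes are Il6, Il11, Osm, Lif and Clcf1, and its 5 receptor chain genes are Il6ra, Il6st, Osmr, Il11ra1 and Lifr. All 10 are protein-coding, were listed in all 4 libraries and passed the filter on low counts. The libraries came from mouse colonic mucosa, 2 from wild-type mice (WT, genotype given as C57BL/6) and 2 from mice lacking Itch (Itch KO), the gene of a HECT-type E3 ubiquitin ligase, whose mucosa the protocol calls inflamed. The state label of every sample reads inflammation, WT included, and the sources used here do not give age, sex, treatment or the number of animals. Genotype and inflammatory state cannot be told apart in this design. Nothing says that the 2 libraries of a group came from separate animals, and p-values cover only the spread between libraries.

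Cytokines of this family share a signal-transducing receptor chain, gp130, encoded by Il6st. Ligands also use a further chain, encoded by Il6ra for IL-6, Il11ra1 for IL-11, Lifr for LIF and Osmr for mouse oncostatin M. The assembled receptor activates JAK kinases and the transcription factor STAT3, which induces its own inhibitor Socs3. In the gut, IL-6 acts on T cells and epithelium, and oncostatin M, made largely by myeloid cells, acts on stromal cells rich in its receptor.

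Depth over the shared genes was 8181193 to 12199709 counts per library. A level of 3 counts, taken here as an approximate upper limit for a count of 0, stood for 0.244 to 0.368 CPM (counts scaled by library size). Itch itself read 203 and 183 CPM in wild-type libraries and 11.9 and 13.4 CPM in the knockout libraries. Pairs of values are given throughout as replicate 1 and then replicate 2. All 10 colon epithelium markers on the list used were detected in every library. Markers of other tissues set single libraries apart: 8 squamous epithelium genes summed to 624 CPM in WT replicate 1 against 27.5 to 63.5 CPM elsewhere, and 5 adipocyte genes to 196 CPM in WT replicate 2 against 40.0 to 73.3 CPM. Neutrophil genes also differed within WT, at a sum of 129 CPM in replicate 1 and 17.8 CPM in replicate 2. These are bulk libraries, in which fewer cells of a type and less RNA per cell cannot be told apart.

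The ligand genes were higher in both Itch KO libraries than in both WT libraries, and the receptor chains, except Osmr, were not. All 5 ligands separated the groups in that direction, and 1 of 5 receptor chains did. Among all 16956 genes tested, 30.1% lay higher in both Itch KO libraries. No member passed the planned test: edgeR's quasi-likelihood test with Benjamini-Hochberg adjustment over all genes called 0% of genes higher and 0% lower. Itch itself, the gene with the smallest edgeR p, was not called either (edgeR adjusted p = 0.0922). At an unadjusted edgeR p below 0.05 all 5 ligands and 0 receptor chains were higher, beside 10.2% of all genes higher and 9.52% lower. DESeq2, an alternative run on the same genes, called 4 members higher (Il6, Il11, Osm and Clcf1) and none lower, where it called 5.24% of all genes higher and 4.76% lower.

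**Figure D1:**
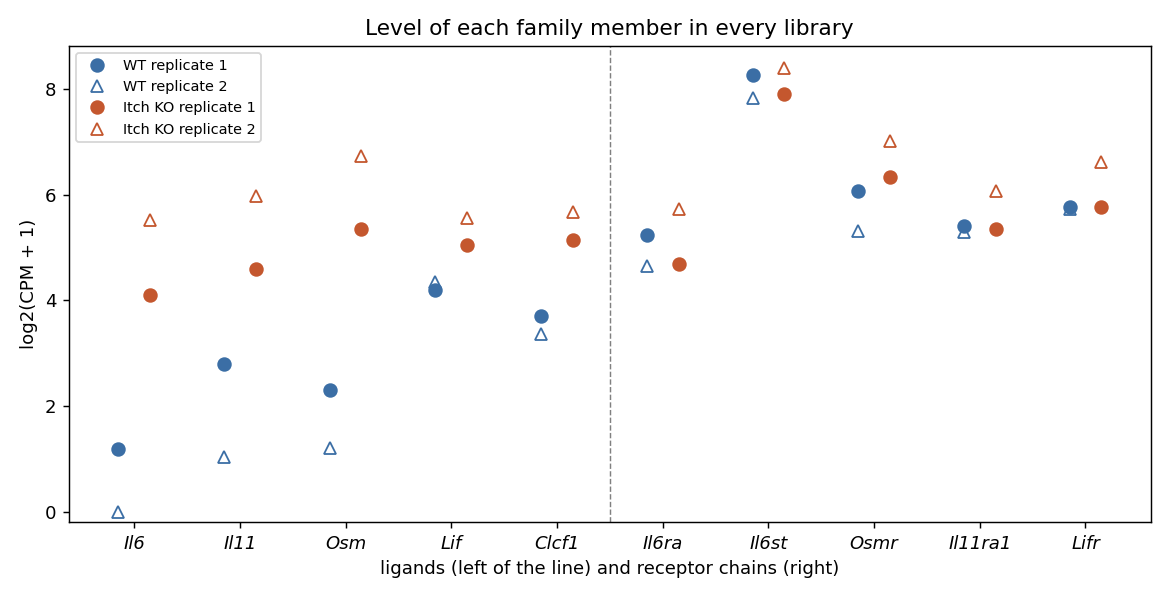
Level of each member in every library, as log2(CPM + 1). Circles are replicate 1 and open triangles replicate 2, blue for WT and orange for Itch KO, with ligands left of the dashed line. Every ligand has both orange symbols above both blue ones, while Il6ra, Il6st, Il11ra1 and Lifr overlap between groups. Itch KO replicate 2 lies above replicate 1 for all 10 genes.

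Osm (ENSMUSG00000058755, GRCm38 chromosome 11, 4236420 to 4241026, plus strand) encodes oncostatin M, the myeloid cytokine of the family. Its counts were 37 and 16 in WT and 324 and 1029 in Itch KO, or 3.94 and 1.30 CPM against 39.8 and 106 CPM. The groups did not overlap, and the lower Itch KO library stood far above the higher WT library. Mean levels were 2.62 ± 1.86 and 72.9 ± 46.8 CPM (SD, n = 2 each), a ratio of 27.9. Its log2 fold change was 4.82 ± 0.82 (SE), with an edgeR adjusted p of 0.128 and a DESeq2 adjusted p of 1.49e-09. Of the 10 members, Osm alone was called by DESeq2 in all 4 fits that left out a library.

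Il6 (ENSMUSG00000025746, chromosome 5, 30013114 to 30019981, plus strand) encodes interleukin-6, the founding cytokine of the family. It had 12 and 0 counts in WT and 131 and 436 in Itch KO, which are 1.28 and 0 CPM against 16.1 and 44.9 CPM. WT was thus close to the limit of detection, and the fold rests on 12 WT counts. Its log2 fold change was 5.63 ± 1.60 (SE; edgeR adjusted p = 0.190, DESeq2 adjusted p = 0.000255). DESeq2 called it in 2 of the 4 fits that left out a library, losing it when either Itch KO library was left out.

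Il11 (ENSMUSG00000004371, chromosome 7, 4772373 to 4782859, minus strand) encodes interleukin-11, a cytokine of fibroblasts and epithelium. It was at 5.96 and 1.06 CPM in wild-type and 23.2 and 62.2 CPM in Itch KO mucosa. The WT libraries differed 5.63-fold from each other, and the groups still did not overlap. Its log2 fold change was 3.62 ± 1.03 (SE; edgeR adjusted p = 0.192, DESeq2 adjusted p = 0.00124), and DESeq2 lost the call without Itch KO replicate 2.

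Clcf1 and Lif differed less between groups and less within them. Clcf1 (ENSMUSG00000040663, chromosome 19, 4214238 to 4223490, plus strand) encodes cardiotrophin-like cytokine factor, which signals through the ciliary neurotrophic factor receptor. It was at 12.02 and 9.27 CPM in wild-type and 34.5 and 50.2 CPM in Itch KO mucosa, a log2 fold change of 1.99 ± 0.34 (SE; edgeR adjusted p = 0.127, DESeq2 adjusted p = 0.000254). DESeq2 lost the call without WT replicate 2 and without Itch KO replicate 2. Lif (ENSMUSG00000034394, chromosome 11, 4257557 to 4272514, plus strand), the gene of leukemia inhibitory factor, was at 17.4 and 19.3 CPM in wild-type and 32.2 and 46.1 CPM in Itch KO mucosa. Its groups were also apart, by a log2 fold change of 1.09 ± 0.29 (SE), but DESeq2 did not call it (adjusted p = 0.0673) and neither did edgeR (adjusted p = 0.177). Lif and Osm are neighbours on chromosome 11, and their ratios of Itch KO to WT means were 2.13 and 27.9.

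Promoters of ligands and receptor chains are shown for the motifs of factors known to act downstream of inflammatory signals, including AP-1, whose subunit JUNB is a known ITCH substrate. RefSeq promoter windows (GRCm38.p6) were found for 8 of the 10 members, Osm and Clcf1 being the others, in 11 windows. The 250 bases before the annotated start were searched on both strands for AP-1 (TGANTCA), STAT (TTCNNNGAA), C/EBP (TTNNGNAA) and the NF-kB consensus. Capitals mark matches, none of which overlap each other.
Il6, chr5:30012864-30013113, plus strand: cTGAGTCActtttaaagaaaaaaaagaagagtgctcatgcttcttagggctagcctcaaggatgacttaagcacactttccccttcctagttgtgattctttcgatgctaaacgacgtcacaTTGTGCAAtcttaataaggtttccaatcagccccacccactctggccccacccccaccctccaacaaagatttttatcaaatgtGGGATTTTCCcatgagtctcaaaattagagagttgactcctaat
Il11, chr7:4778142-4778391, minus strand: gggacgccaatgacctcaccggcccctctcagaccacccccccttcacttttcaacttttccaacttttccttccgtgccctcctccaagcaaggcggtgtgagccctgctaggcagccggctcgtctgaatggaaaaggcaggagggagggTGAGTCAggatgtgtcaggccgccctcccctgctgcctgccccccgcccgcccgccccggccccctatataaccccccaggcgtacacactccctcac
Lif, chr11:4257318-4257567, plus strand: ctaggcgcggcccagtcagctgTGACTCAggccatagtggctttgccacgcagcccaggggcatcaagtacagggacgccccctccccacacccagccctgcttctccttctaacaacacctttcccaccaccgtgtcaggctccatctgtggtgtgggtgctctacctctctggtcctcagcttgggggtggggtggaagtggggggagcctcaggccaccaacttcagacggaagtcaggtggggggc
Osmr, chr15:6874314-6874563, minus strand: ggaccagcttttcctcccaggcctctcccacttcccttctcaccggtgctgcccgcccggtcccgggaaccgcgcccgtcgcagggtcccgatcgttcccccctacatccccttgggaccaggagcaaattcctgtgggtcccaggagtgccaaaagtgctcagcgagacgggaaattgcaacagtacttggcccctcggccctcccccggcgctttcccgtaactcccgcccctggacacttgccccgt
The AP-1 motif was found once in each of the 3 ligand sequences, ending 243 bases before the start in Il6, 92 in Il11 and 222 in Lif. It was in neither the other Il11 window nor any of the 7 receptor chain windows, and 6.75% of all 32851 windows of this length held it. The Il6 sequence also held a C/EBP match 128 to 121 bases and an NF-kB match 44 to 35 bases before the start. Those motifs were in 36.8% and 3.90% of all windows. Il6ra held 2 C/EBP matches, and no member window held the STAT motif, present in 7.02% of all windows. A match describes the letters only and shows no binding, and a link from ITCH or JUNB to these genes was not tested.

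Among the receptor chains, Osmr (ENSMUSG00000022146, chromosome 15, 6813577 to 6874969, minus strand), the oncostatin M receptor, was the only gene with groups apart. It was at 66.3 and 39.0 CPM in wild-type and 79.2 and 128 CPM in Itch KO mucosa. The gap between the closest libraries of the 2 groups was smaller than the gap between the WT libraries. Its log2 fold change was 0.98 ± 0.37 (SE; edgeR adjusted p = 0.262, unadjusted p = 0.0541, DESeq2 adjusted p = 0.137). DESeq2 called it only without WT replicate 1, the library with squamous markers, with an adjusted p of 0.0246.

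Il6st (ENSMUSG00000021756, chromosome 13, 112464070 to 112510086, plus strand), the shared gp130 chain, was the most abundant receptor chain per kb and overlapped between groups. It was at 305 and 226 CPM in wild-type and 239 and 336 CPM in Itch KO mucosa, a log2 fold change of 0.11 ± 0.27 (SE; edgeR adjusted p = 0.831). Its direction turned without Itch KO replicate 2, to -0.15, and without WT replicate 2, to -0.09. Il6ra (ENSMUSG00000027947, chromosome 3, 89864059 to 89913196, minus strand), the IL-6 binding chain, was at 36.8 and 24.2 CPM in wild-type and 24.7 and 52.1 CPM in Itch KO mucosa. Itch KO replicate 1 was level with WT replicate 2 and Itch KO replicate 2 lay above both WT libraries, and its log2 fold change of 0.33 became -0.30 without Itch KO replicate 2.

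Lifr and Il11ra1 were nearly equal in the WT libraries and in Itch KO replicate 1, and higher in Itch KO replicate 2. Lifr (ENSMUSG00000054263, chromosome 15, 7090614 to 7197489, plus strand), the LIF receptor, was at 53.6 and 51.9 CPM in wild-type and 53.5 and 96.7 CPM in Itch KO mucosa. Its log2 fold change was 0.51 ± 0.32 (SE; edgeR adjusted p = 0.423). Il11ra1 (ENSMUSG00000073889, chromosome 4, 41699989 to 41769474, plus strand), the IL-11 binding chain, was at 41.3 and 38.0 CPM in wild-type and 39.9 and 66.1 CPM in Itch KO mucosa, a log2 fold change of 0.42 ± 0.29 (SE; edgeR adjusted p = 0.467). Il11ra1 has the near-identical copy Il11ra2, listed at 5.85 and 4.96 CPM in wild-type and 3.32 and 7.73 CPM in Itch KO mucosa, so the split of reads between these is uncertain. Without Itch KO replicate 2 the log2 fold changes of Lifr and Il11ra1 were 0.03 and 0.02.

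**Figure D2:**
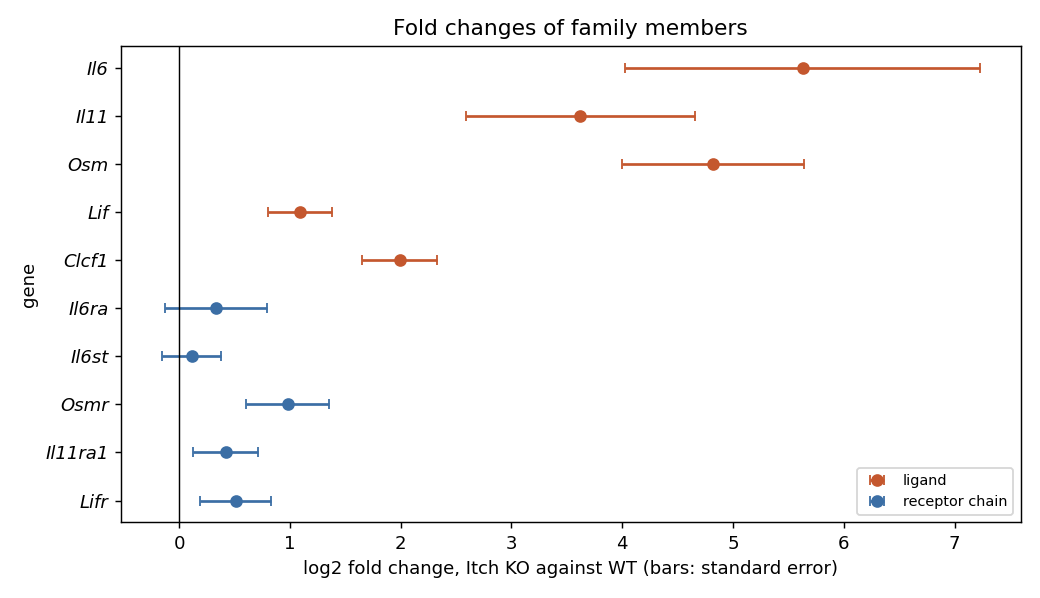
Log2 fold changes of the 10 members, Itch KO against WT, from edgeR, with bars of 1 standard error from the fit of 2 libraries per group. Ligands (orange) lie between 1.09 and 5.63, receptor chains (blue) between 0.11 and 0.98.

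Set against each other within a library, ligands stood closer to receptor chains in Itch KO mucosa than in WT. The mean log2 CPM of the 5 ligands was 2.60 and 1.23 in WT and 4.81 and 5.88 in Itch KO. That of the 5 receptor chains was 6.13 and 5.74 in WT and 5.98 and 6.75 in Itch KO. The difference, ligands minus receptor chains, was -4.02 ± 0.69 in WT and -1.03 ± 0.21 in Itch KO (SD, n = 2 each), a shift of 2.99. The shift was larger than the pooled SD of 0.51, and no test was made of this score because its members were chosen. It ranged from 2.504 to 3.48 over its 10 alternatives, which include each library left out.

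Each ligand was also compared with its own receptor chain, as a ratio of CPM per kb of exonic sequence. Osm to Osmr was 0.317 and 0.178 in WT and 2.68 and 4.41 in Itch KO. Il6 to Il6ra was 0.123 and 0 in WT and 2.32 and 3.07 in Itch KO. Il11 to Il11ra1 was 0.310 and 0.0598 against 1.25 and 2.02. Per kb, for all 3 of these pairs the ligand was the lesser transcript in each WT library and the greater in each Itch KO library. This reversal depends on the annotated exonic lengths. In CPM without length scaling each of these ligands stayed below its receptor chain in every library. In Itch KO, Osm was at 39.8 and 106 CPM against 79.2 and 128 CPM for Osmr. Lif to Lifr was 0.806 and 0.920 against 1.49 and 1.18, a smaller step in the same direction.

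**Figure D3:**
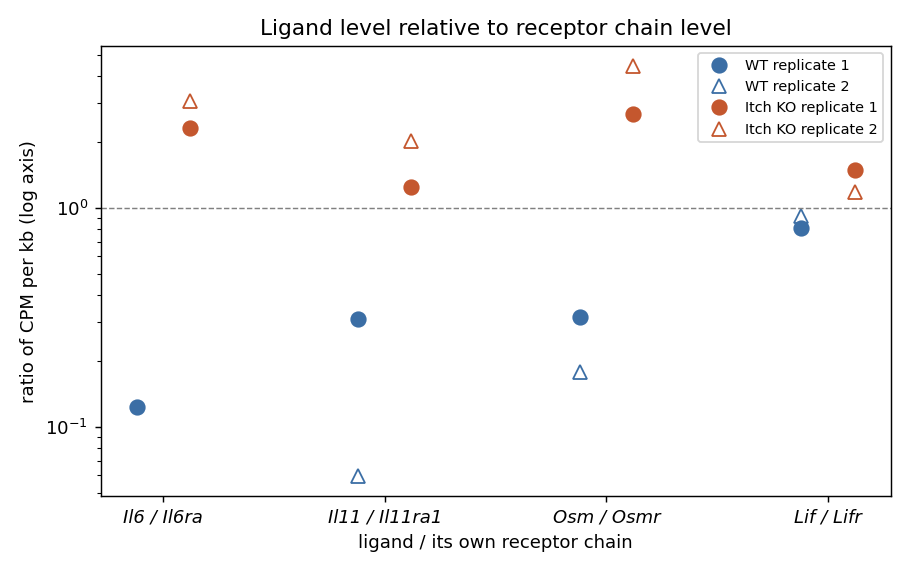
Ratio of ligand to receptor chain, each in CPM per kb of exonic sequence, on a log axis, for 4 pairs in each library. Circles are replicate 1 and open triangles replicate 2, blue for WT and orange for Itch KO. The WT value of Il6 to Il6ra in replicate 2 is 0 and is not drawn. All WT ratios lie below the dashed line at 1 and all Itch KO ratios above it.

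The order of levels differed between the groups. Per kb of exonic sequence, WT mucosa had Il6st first, at 23.9 ± 5.04 CPM per kb, then Il11ra1 at 8.86 ± 0.519 and Lifr at 4.90 ± 0.112 (SD, n = 2 each). Il6st and Il11ra1 each lay clear of the next gene in both WT libraries. Osmr, Lif, Il6ra, Clcf1, Il11 and Osm followed, with the ranges of neighbours overlapping. Il6 was last, at 0.263 ± 0.372 CPM per kb. Its range lay only just below that of Osm: 0.526 in replicate 1 (12 counts) against 0.573 for Osm in replicate 2 (16 counts). In Itch KO mucosa Osm came first by mean at 32.1 ± 20.6 CPM per kb, followed by Il6st at 25.9 ± 6.19, Il11 at 20.5 ± 13.3 and Il6 at 12.6 ± 8.40. Osm led in replicate 2 only, at 46.7 against 30.3 for Il6st, and Il6st led in replicate 1, at 21.5 against 17.5 for Osm. The ranges of every pair of neighbours overlapped there, with all members higher in replicate 2, so the order of these means is not resolved by 2 libraries. Within each Itch KO library Osm lay above Il11 and Il11 above Il6. Il6ra was last in both, at a mean of 4.44 ± 2.25 CPM per kb.

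The Itch KO libraries differed from each other across the whole family. All 10 members had their higher value in replicate 2, where 45.3% of all tested genes were. The ratio of replicate 2 to replicate 1 was 2.66 to 2.79 for Osm, Il11 and Il6, and 1.41 to 2.11 for the other 7 members. Most marker lists moved with it. All 7 fibroblast genes, all 6 endothelial genes, 7 of 8 neutrophil genes and 7 of 8 monocyte and macrophage genes were higher in replicate 2. So were all 8 T cell, 5 dendritic cell, 7 enteric neuron and glia and 5 adipocyte genes, and 5 of 6 smooth muscle genes. The count was 4 of 7 for B cell and plasma cell genes, 4 of 6 for mast cell and 5 of 8 for squamous epithelium genes. Of colon epithelium genes, 0 of 10 were higher in replicate 2. In WT, 9 of 10 members were higher in replicate 1, the exception being Lif, beside 49.3% of all genes. All 7 fibroblast, 6 endothelial, 6 smooth muscle, 8 neutrophil, 8 monocyte and macrophage and 8 squamous epithelium genes were higher there too, as were 7 of 10 colon epithelium genes. Only 2 of 8 T cell, 1 of 5 dendritic cell, 1 of 7 enteric neuron and glia and 0 of 5 adipocyte genes were.

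Marker sums were therefore set beside the members. Fibroblast genes summed to 1654 and 1012 CPM in wild-type and 1258 and 1854 CPM in Itch KO mucosa, overlapping between groups. Monocyte and macrophage genes summed to 453 and 307 CPM against 649.5 and 1014 CPM, and neutrophil genes to 129 and 17.8 CPM against 424 and 698 CPM. None of the genes on these 3 lists was at 0 in any library, and their part in the members' differences was not tested.

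As a percentage of the fibroblast sum, a ratio chosen after the values were seen, Osmr was at 4.01 and 3.85 in WT and at 6.30 and 6.91 in Itch KO. The WT libraries, which differed 1.70-fold in Osmr CPM, were close on this scale and the groups stayed apart. Il6st, at 18.4 and 22.3 against 18.97 and 18.1, overlapped, as did Il6ra, Il11ra1 and Lifr. All 5 ligands stayed higher in Itch KO on this scale. As a percentage of the monocyte and macrophage sum, Osm was at 0.869 and 0.423 in WT and at 6.13 and 10.5 in Itch KO, and against the neutrophil sum at 3.05 and 7.31 against 9.38 and 15.2. On both scales Osm remained higher in each Itch KO library, by less against neutrophil genes. Over the 5 scales computed, all chosen after the values were seen, Osm and Il6 were higher in both Itch KO libraries on every one. For the other members the order of the groups depended on the scale. The share of all genes with groups apart was not computed on any of these scales. The 30.1% of tested genes higher in both Itch KO libraries is for CPM without this scaling. Against the endothelial sum all 5 ligands and Osmr were higher in both Itch KO libraries. Against the monocyte and macrophage sum Lif overlapped, and Osmr was slightly lower, at 14.6 and 12.7 against 12.2 and 12.6. Against the neutrophil sum Il6 was also higher in both Itch KO libraries, Il11 overlapped at 4.61 and 5.94 against 5.47 and 8.92, and Clcf1 and Lif were lower, Lif at 13.5 and 108 against 7.58 and 6.60. Osmr was lower on that scale as well, and the WT neutrophil sums differed widely between libraries. Against the sum of T cell genes Il6, Il11, Osm and Clcf1 were higher in both Itch KO libraries, Lif was lower, at 21.3 and 17.3 against 14.5 and 15.1, and Osmr overlapped. Il6st and Il6ra were lower in both Itch KO libraries on every scale but the fibroblast one, Il6st at 67.4 and 73.5 against 36.8 and 33.1 on the monocyte and macrophage scale. Il11ra1 and Lifr were lower on the neutrophil, monocyte and macrophage, and T cell scales and overlapped on the fibroblast and endothelial ones. Those 3 marker sums were themselves higher in both Itch KO libraries, T cell genes at 81.8 and 111 against 222 and 305 CPM. A gene of unchanged CPM therefore reads lower on these scales, and the lower values there do not show a lower transcript level. Which cells carried these transcripts was not tested.

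Other ligands and receptors of the family fell into a group that was higher in Itch KO and a group that was not. Of 10 listed genes 7 passed the filter on low counts. Their log2 fold changes had a median of 2.23, beside 0.01 for all genes tested, and 4 of them were higher at an unadjusted edgeR p below 0.05 (10.2% of all genes were), with none called after adjustment. Il27, the cytokine subunit of interleukin-27, was at 0.425 and 0.163 CPM in wild-type and 1.97 and 13.8 CPM in Itch KO mucosa. Its partner Ebi3 was at 1.91 and 2.03 against 5.77 and 15.4 CPM, and Il27ra, the receptor chain that pairs with gp130, at 5.64 and 7.32 against 26.4 and 34.7 CPM. All 3 had groups apart, and DESeq2 called Il27 and Il27ra but not Ebi3 (adjusted p = 0.0585). Of the 7 tested genes 4 lay higher in both Itch KO libraries, beside 30.1% of all genes. DESeq2 called 3 of them higher and none lower, beside 5.24% and 4.76% of all genes.

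Cntfr, the ciliary neurotrophic factor receptor chain through which the Clcf1 product signals, overlapped at 6.59 and 6.83 CPM in wild-type and 3.81 and 8.34 CPM in Itch KO mucosa. Ctf1, the gene of cardiotrophin-1, overlapped as well, at 4.79 and 8.62 against 5.40 and 7.01 CPM. Cntf, Ctf2 and Il31ra, whose product pairs with the Osmr chain, stayed below 1 CPM in every library and were not tested.

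Signal transducers below gp130 had log2 fold changes centred near 0. The median log2 fold change of the 10 tested genes was 0.05, with 2 higher and 1 lower at an unadjusted edgeR p below 0.05 (10.2% and 9.52% of all genes) and none called after adjustment. Stat3, the main transcription factor of the pathway, was at 240 and 196 CPM in wild-type and 250 and 241 CPM in Itch KO mucosa, and the kinase gene Jak1 at 231 and 198 against 224 and 220 CPM. For Jak1 the Itch KO values lay between the WT values, and for Stat3 just above the higher of them. The adaptor gene Gab1 was lower, at 84.3 and 109 CPM in wild-type and 50.6 and 65.2 CPM in Itch KO mucosa, and Grb2, another adaptor, was at 123 and 109 against 147 and 146 CPM, neither of them called by DESeq2.

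Inhibitors of the pathway included genes with larger differences. Of 11 tested inhibitors and receptor sheddases, 5 were higher and 2 lower at an unadjusted edgeR p below 0.05, beside 10.2% and 9.52% of all genes, and none passed after adjustment. DESeq2 called 4 higher and none lower, beside 5.24% and 4.76% of all genes. The median log2 fold change was 0.25. Socs3, the STAT3-induced inhibitor that binds gp130, was at 70.7 and 83.5 CPM in wild-type and 158 and 193 CPM in Itch KO mucosa, a log2 fold change of 1.19 ± 0.17 (SE; edgeR adjusted p = 0.123). Socs1, another inhibitor of JAK kinases, read 8.08 and 10.3 CPM in wild-type and 40.2 and 61.3 CPM in Itch KO mucosa. In both genes the 2 Itch KO libraries lay closer together than they did for Osm or Il6. The phosphatase genes Ptpn6, at 57.5 and 70.7 against 108 and 129 CPM, and Ptpn1, at 134 and 110 against 178 and 225 CPM, were the other 2 called by DESeq2. Adam10, a sheddase of the IL-6 receptor, overlapped at 207 and 176 against 206 and 176 CPM.

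In genes known to be induced by STAT3 the log2 fold changes had a median of 0.66, with 23 of 24 positive. In oncostatin M-responsive stromal genes the median was 2.17, with 14 of 15 positive. Over all 16956 tested genes 8587 were positive. At an unadjusted edgeR p below 0.05, 13 and 8 of these genes were higher and none lower, beside 10.2% of all genes higher and 9.52% lower. None passed after adjustment, and DESeq2 called 11 and 8 higher and none lower, beside 5.24% and 4.76% of all genes. In the STAT3 list, Lcn2, an iron-sequestering antimicrobial gene, was at 11.5 and 9.60 CPM in wild-type and 73.8 and 97.0 CPM in Itch KO mucosa, Hp, the gene of haptoglobin, at 11.5 and 17.4 against 76.8 and 112 CPM, and Il4ra at a mean of 115 ± 8.19 against 269 ± 26.7 CPM (SD, n = 2 each). The survival gene Mcl1 overlapped at 239 and 170 against 245 and 235 CPM, as did Hif1a, low in WT replicate 2 alone at 93.7 CPM against 206 to 217 CPM elsewhere.

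In the stromal list, the chemokine genes Cxcl9, Cxcl10 and Ccl7 had the smallest p-values. Cxcl9 was at 16.6 and 5.21 CPM in wild-type and 107 and 176 CPM in Itch KO mucosa, and Cxcl10 at 13.0 and 5.78 against 51.1 and 83.8 CPM. Both are also known interferon-induced genes. Ccl7 was at 6.59 and 2.52 against 23.3 and 44.4 CPM, and the adhesion gene Vcam1 at 73.3 and 33.0 against 97.9 and 131 CPM. Thy1 was at 58.1 and 40.7 against 65.3 and 99.7 CPM. Of the 15 genes on this list, Itch KO replicate 2 exceeded replicate 1 in all and WT replicate 1 exceeded replicate 2 in 13. All or most fibroblast, endothelial, smooth muscle, neutrophil, and monocyte and macrophage markers had the same directions, so the pattern is not particular to 1 cell type.

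**Figure D4:**
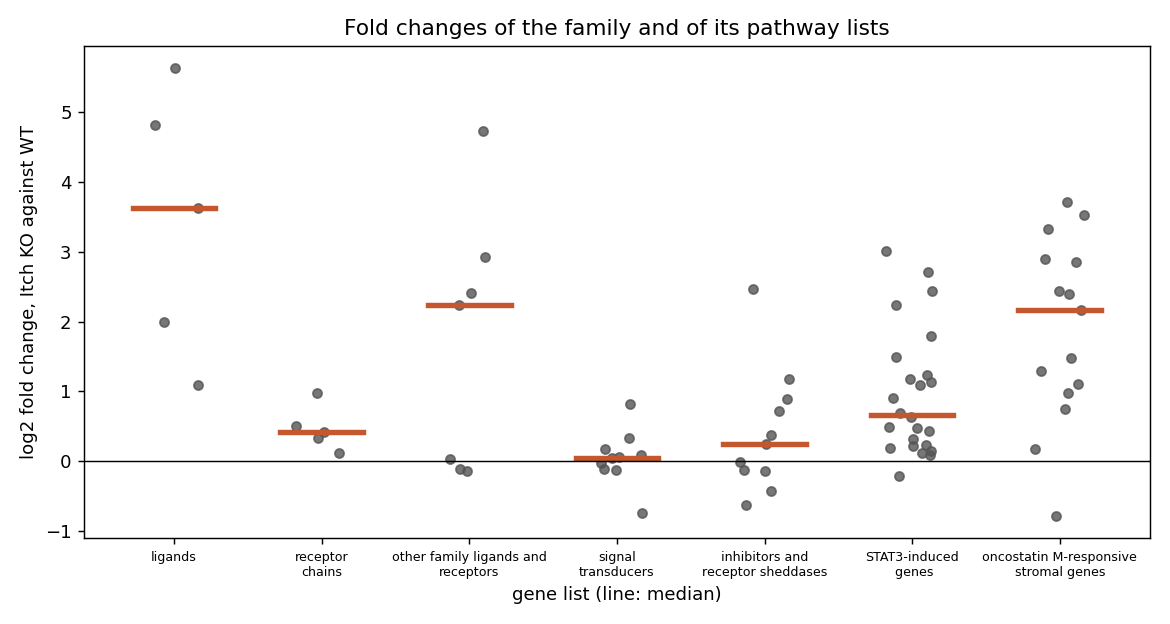
Log2 fold change of every tested gene in the 2 member groups and 5 pathway lists, Itch KO against WT, with a line at each median. Medians are 3.62 for ligands, 0.42 for receptor chains, 2.23 for other family genes, 0.05 for signal transducers, 0.25 for inhibitors and sheddases, 0.66 for STAT3-induced genes and 2.17 for stromal genes, beside 0.01 for all tested genes. Points are spread sideways for legibility.

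Genes with the profile most like a member were taken by the root mean square difference of centred log2 CPM over the 4 libraries, among 13334 genes whose mean reached 5 CPM. Nearest to Il6 were Csf3, the granulocyte growth factor gene (difference 0.181), Serpina3f (0.289) and the neutrophil chemokine gene Cxcl2 (0.300). Nearest to Osm were Lin28a (0.101), Rab44 (0.111) and Spp1, the osteopontin gene (0.128). Among the genes near Il11 were Dio2 (0.173) and Hk3 (0.188). Nearest to Osmr were Rassf2 (0.0181), Igfbp2 (0.0408) and Klf2 (0.0459). In WT, Lin28a was at 0.425 and 0 CPM, and Csf3 was at 0 CPM in replicate 2. At such levels the prior count of 2 shapes the log2 values and so the nearness. With 4 libraries many profiles lie close together, and nearness is a description of these libraries alone.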

How the data were processed

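RNA sequencing of total RNA from mouse colonic mucosa gave 4 libraries, grouped by their titles into 2 WT and 2 Itch KO. The authors deposited raw counts per gene, 1 table per library. Per the submitters' processing notes the tools were HTSeq 0.6.1, SAMtools 0.1.19, TopHat2 and CASAVA 1.8.2, and the builds mm10 and GRCm38. For strand setting and duplicate handling the sources used here give nothing. The table of WT replicate 1 lists 19308 genes and the others 39179, and tests used the 19308 shared genes, or 97.3% to 97.7% of all gene counts in the longer tables. In those, reads outside genes (18.2% to 23.0%) and ambiguous reads (2.67% to 3.03%) were left out of library sizes. No gene exceeded 9389 counts, or 999 CPM. Osm in Itch KO replicate 2, at 46.7 CPM per kb, lay above the 90th percentile of genes, 31.8, and compression of dense genes was not tested.

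Fits used edgeR 4.0.16 in R 4.3.3, with TMM factors, filterByExpr (minimum count 10), a robust quasi-likelihood fit on group alone and a two-sided threshold of 0.05 after Benjamini-Hochberg adjustment. Of the 2 residual degrees of freedom, each comes from 1 group, and the biological coefficient of variation was 34.8%. DESeq2 1.42.0 and voom from limma 3.58.1 were alternatives, with other normalizations and filters, a replicate block and each library left out. DESeq2 with a library left out was added after seeing the data. Scripts were tested on simulated data. Mean log2 CPM used a prior count of 2. Coordinates and exonic lengths (union of exons) are from GENCODE M21 (GRCm38), which holds 19084 of the identifiers. Its exons of Clcf1 share 311 bp with another gene model on the same strand and those of Il6ra 242 bp with an antisense one. Neither model is in the deposited tables.

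The members and gene lists were chosen with earlier results of these data known. Named genes are the members, Itch, all listed genes of the other family list, from each further pathway list the 3 with the smallest edgeR p and the 2 others with the highest mean CPM, and the 3 nearest profiles to Il6, Osm, Il11 and Osmr, leaving out predicted genes and immunoglobulin or T cell receptor segments. Some genes that this rule names are not reported here, and counts and medians of the lists include them. Protein sequences were not used here.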

Additional observations from a re-analysis of the deposited data

Results flagged for a closer look

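Cebpd, the gene of a C/EBP transcription factor on the STAT3-induced list, is listed for 3 libraries and not in the shorter table of WT replicate 1, so it entered no test. Its counts were 323 in the second WT library and 516 and 656 in the Itch KO libraries, or 26.3 CPM against 63.4 and 67.6 CPM. It drew attention as a signal outside the tested genes that was higher in both Itch KO libraries than in the WT library that lists it, and with 1 WT library the difference has no replicate check. Il31, of the same shorter listing, had 1, 0 and 1 counts.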

How the results depend on the processing

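With 2 libraries per group the tests had little room, and calls differed by tool. DESeq2 called 889 genes higher and 807 lower where edgeR called 0, and 4 members higher where edgeR called 0. DESeq2 called 809 genes higher and 361 lower without WT replicate 1, 584 and 309 without WT replicate 2, 667 and 562 without Itch KO replicate 1, and 158 and 280 without Itch KO replicate 2, and in those fits 5, 3, 3 and 1 members higher. edgeR and voom called 0 genes and 0 members in each direction under each of their 12 alternatives. All 5 ligands and Osmr, Il11ra1 and Lifr kept a positive log2 fold change in all 17 alternatives. Il6st turned negative without WT replicate 2 and without Itch KO replicate 2 (edgeR range over left-out libraries -0.15 to 0.37, DESeq2 -0.12 and -0.16), and Il6ra without Itch KO replicate 2 (edgeR range -0.30 to 0.78, DESeq2 -0.31); the cause was not tested. Ligands at an unadjusted p below 0.05 numbered 2 to 5 with a library left out, 2 (Osm and Clcf1) without Itch KO replicate 2. The Il6 log2 fold change without WT replicate 1, 11.3, is set against a library with 0 counts and is no estimate.

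With the replicate number as a block edgeR called 0 genes, and 3 ligands (Osm, Clcf1 and Lif) stayed below an unadjusted p of 0.05. Libraries of the same number shared only that number: the deviations of the WT and Itch KO replicates correlated at 0.05 across 16956 genes. The ligand minus receptor shift of 2.99 is the same with the block by construction. In WT, depth limits Il6 most, with 12 and 0 counts.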
